A study of Mus musculus with 16 samples.

Results

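Levels of 10 genes that are induced by, or restrain, mitogen-activated protein kinase (MAPK) signalling were followed across all groups of a mouse colon organoid series. The members were listed by name, with no threshold on their values: the dual-specificity phosphatases Dusp4, Dusp5 and Dusp6, the Sprouty genes Spry1, Spry2 and Spry4, the Sprouty-related Spred1, the ETS transcription factors Etv4 and Etv5, and the pleckstrin homology-like gene Phlda1. They are 10 of 54123 genes measured, and all 10 were among the 15289 genes with enough counts to be tested.

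Colon organoids were derived from 2 female mice aged 8 weeks. The mice came from a cross of homozygous tdTomato reporter animals with the heterozygous Cre-inducible BrafV600E strain B6.129P2(Cg)-Braftm1Mmcm/J. The offspring carried 1 copy each of the inducible BrafV600E allele and of the reporter, alleles that every group shares. No Cre treatment is described for these libraries. The first part of the colon gave proximal organoids and the end of the descending colon gave distal organoids. Both were edited by lentiviral Cas9 with either Scramble-sgRNA, the control, or Cdx2-sgRNA, directed at the intestinal transcription factor gene Cdx2. The Cdx2-sgRNA organoids each grew from a single cell and carry frameshift mutations in both alleles. No single-cell step is described for the Scramble-sgRNA organoids, so the effect of a clone and that of Cdx2 mutation cannot be told apart. After 4 months in culture they were given WENR-plus for 2 days, which holds Wnt3a, EGF, Noggin and R-Spondin, and then for 3 further days WENR-plus or WENR-minus, which holds none of them. EGF is the factor that acts directly on the MAPK cascade, and its removal cannot be told apart from that of Wnt3a, Noggin and R-Spondin. The design thus gives 8 groups of 2 libraries, and the replicate number is read as the mouse.

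EGF binds its receptor at the cell surface and switches on Ras, which drives the kinases Raf, Mek and Erk in turn. Erk then induces genes that act back on the cascade. Dual-specificity phosphatases remove phosphate from Erk, Dusp5 in the nucleus and Dusp6 in the cytoplasm, while Sprouty and Spred proteins act between the receptor and Raf. Etv4 and Etv5 are transcription factors whose RNA commonly follows receptor tyrosine kinase activity, so these genes are widely read together as a record of Erk output. In the colon the cascade is known for its part in crypt cell division and in colon cancer.

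Total counts per library ranged from 12465194 to 18922143, and mitochondrial ribosomal RNA took 15.4 to 28% of them. The summed level of 8 epithelial markers was 4150 to 22400 CPM (counts scaled to library size) in a library. Summed over their lists, 5 fibroblast markers reached at most 1.11 CPM, 3 endothelial markers 2 CPM, 3 muscle markers 0.365 CPM and 4 immune markers 10.2 CPM. Cd68 apart, the immune genes stayed under 1 CPM in every library. The RNA of Cdx2 was 29.9 and 33.3 CPM in proximal Cdx2-sgRNA organoids against 142 and 127 CPM in proximal Scramble-sgRNA organoids, in WENR-plus. In distal organoids in WENR-plus it was 62.2 and 50.2 CPM against 76.8 and 67.9 CPM, a log2 difference of -0.36 ± 0.20 (SE) that did not pass the test (adjusted p = 0.857, edgeR). In WENR-minus distal libraries held 126 and 86.1 CPM in Cdx2-sgRNA against 112 and 110 CPM in Scramble-sgRNA, which overlap (log2 -0.07 ± 0.20, adjusted p = 0.876), and proximal ones 73.9 and 71.0 CPM against 203 and 151 CPM. An RNA total does not read a frameshift, so it does not check the labels of the distal groups.

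Promoter sequence from RefSeq (GRCm38.p6, 250 bases before to 50 after the start site) was matched for 6 of the 10 genes, in 7 windows. Of these, 3 are shown, because Dusp5 had the largest increase in WENR-minus among the 10 genes and Etv5 the largest decrease in Cdx2-sgRNA organoids. Capitals mark matches to letters searched on both strands: CCGGAA (ETS factors), TGANTCA (AP-1), ATCAAAG (TCF), CATAAA (CDX factors) and the CArG box of serum response factor. The motifs were chosen with the results known.

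Dusp5 promoter, chr19:53528895-53529194, plus strand: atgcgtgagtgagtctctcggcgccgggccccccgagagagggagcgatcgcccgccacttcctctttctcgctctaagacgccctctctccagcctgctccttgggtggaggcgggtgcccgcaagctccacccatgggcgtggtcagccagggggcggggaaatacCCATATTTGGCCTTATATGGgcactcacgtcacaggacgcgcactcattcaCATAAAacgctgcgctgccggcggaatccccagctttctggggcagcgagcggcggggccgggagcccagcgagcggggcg

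Etv5 promoter at the upstream RefSeq start, chr16:22439521-22439820, minus strand: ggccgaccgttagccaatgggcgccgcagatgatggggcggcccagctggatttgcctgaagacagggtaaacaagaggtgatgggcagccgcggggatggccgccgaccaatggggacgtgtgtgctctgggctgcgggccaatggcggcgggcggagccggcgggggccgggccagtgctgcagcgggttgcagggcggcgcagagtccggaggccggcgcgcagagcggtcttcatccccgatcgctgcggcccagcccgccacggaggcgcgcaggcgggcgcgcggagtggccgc

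Etv5 promoter at a downstream start, chr16:22438319-22438618, minus strand: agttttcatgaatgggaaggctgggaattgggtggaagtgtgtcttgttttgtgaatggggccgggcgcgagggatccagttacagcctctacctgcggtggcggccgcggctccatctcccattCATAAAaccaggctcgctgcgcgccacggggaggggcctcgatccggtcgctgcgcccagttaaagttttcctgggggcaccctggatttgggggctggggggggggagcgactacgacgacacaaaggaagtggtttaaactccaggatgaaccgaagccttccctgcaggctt

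The Dusp5 window held CArG matches at bases -82 to -73 and -72 to -63 from the start site, end to end with no overlap, and CATAAA at -31 to -26. Etv5 held CATAAA at -125 to -120 of its downstream start and no match at its upstream RefSeq start. Among the other windows, Spry2 held CCGGAA at 33 to 38 and those of Dusp6, Spry1 and Spred1 held none of the letters searched. Of 32851 mouse promoter windows of the same length, 1.63% held a CArG box, 11.9% CATAAA, 14.9% CCGGAA, 7.81% TGANTCA and 3.73% ATCAAAG. A match describes letters and does not show that a factor binds.

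The 10 genes covered a wide range of levels. Compared per length as TPM, Phlda1 was the highest with a median of 209 TPM over 16 libraries, followed by Dusp6 (61.9 TPM) and Dusp4 (48.6 TPM). Spry4 was the lowest with a median of 1.84 TPM and a range of 0.312 to 7.19 TPM. Etv5 varied most in proportion, from 0.283 to 40.3 TPM, while Phlda1 stayed between 95.7 and 279 TPM. Dusp5 ranged from 3.85 to 84.2 TPM and Etv4 from 0.684 to 25.6 TPM. Reads behind these values were fewest for Etv4 (7 to 349 per library), Etv5 (14 to 979) and Spry4 (14 to 395), and most for Phlda1 (1917 to 6172). Dusp4, Dusp5, Spry2 and Spry4 each have 1 transcript in the deposited tables, whereas Etv4 has 12, of which the leading one held 41.5% and the next 26.8% of its reads on average. Exons of Dusp5, Spry1 and Phlda1 overlap a gene on the opposite strand, which was given at most 3, 8 and 21 reads in a library. Coordinates below are those of GRCm38.

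**Figure D1:**
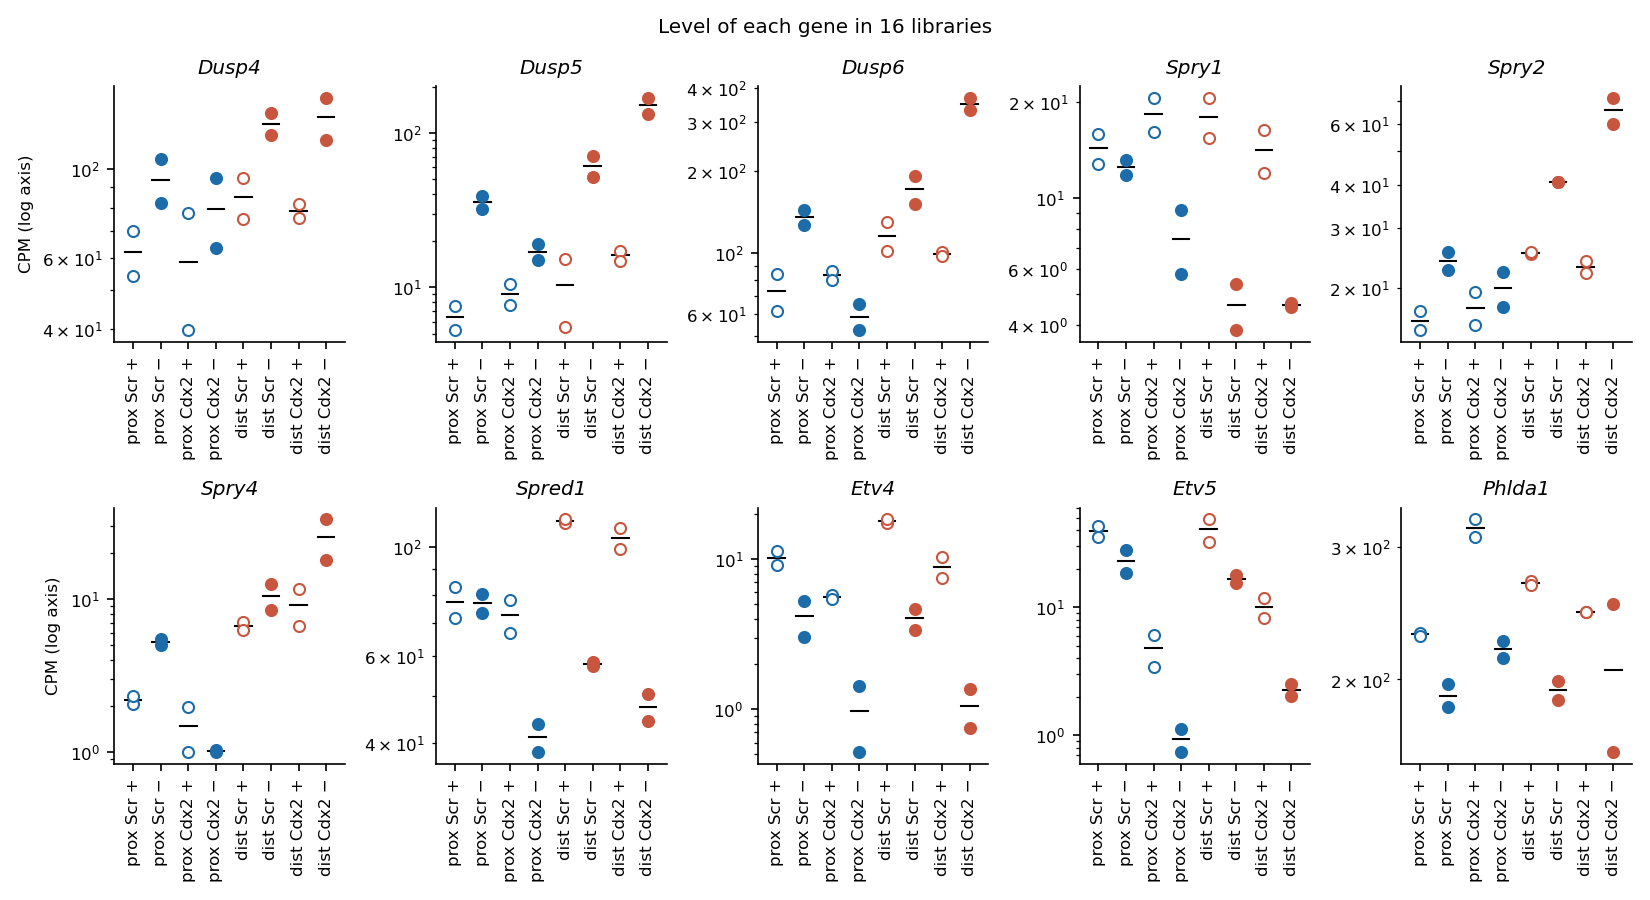
Level of each of the 10 genes in the 16 libraries, in CPM on a log axis with its own range for each gene. Points are libraries (blue proximal, red distal; open WENR-plus, filled WENR-minus; Scr, Scramble-sgRNA) and bars are means of 2; Dusp5 is highest in distal Cdx2-sgRNA organoids in WENR-minus (170 and 132 CPM) and Etv5 is lowest in proximal Cdx2-sgRNA organoids in WENR-minus (1.11 and 0.740 CPM).

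The first question is how the 10 genes respond when the niche factors are taken away. In Scramble-sgRNA organoids Dusp5, the nuclear Erk phosphatase, rose and Etv4 fell in both regions. In proximal Scramble-sgRNA organoids 2 of 10 genes rose and 1 fell, where 8.73% of all tested genes rose and 8.24% fell. In distal Scramble-sgRNA organoids 1 rose and 3 fell, against 12.2% and 14.2% of all genes. Distal Cdx2-sgRNA organoids had the most calls, 4 genes higher and 4 lower, against 14.9% and 18.1%. In proximal Cdx2-sgRNA organoids 3 genes were called and each was lower, where 3.42% of all genes rose and 2.98% fell. A call is an adjusted p (Benjamini-Hochberg, quasi-likelihood test of edgeR) under 0.05 with a change of more than 2-fold. The median log2 fold change of the 10 genes was 0.28, 0.04, 0.26 and -0.54 in these 4 comparisons, beside -0.06, -0.11, -0.10 and -0.03 for all genes. In bulk RNA, fewer cells of a type and less RNA per cell cannot be told apart.

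Dusp5 (ENSMUSG00000034765.6, chr19:53529109-53542431), whose promoter is shown above, was at 5.26 and 7.58 CPM in proximal Scramble-sgRNA organoids in WENR-plus and at 39.2 and 32.4 CPM in WENR-minus. In distal Scramble-sgRNA organoids it was at 5.51 and 15.2 CPM in WENR-plus and at 52.0 and 71.1 CPM in WENR-minus. The groups did not overlap, and the increase was 5.59-fold in proximal (log2 2.48 ± 0.40 SE, adjusted p = 0.00132) and 5.96-fold in distal organoids (log2 2.58 ± 0.40, adjusted p = 0.000475). Without distal WENR-plus replicate 2, the higher of that pair, the distal log2 value was 3.58. In distal Cdx2-sgRNA organoids the level went from 17.3 and 14.9 CPM to 170 and 132 CPM, 9.38-fold (log2 3.23 ± 0.40, adjusted p = 7.36e-05). Proximal Cdx2-sgRNA organoids had 10.6 and 7.67 CPM in WENR-plus and 14.9 and 19.2 CPM in WENR-minus, without overlap, and the log2 difference of 0.91 ± 0.39 did not pass (adjusted p = 0.147).

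Dusp6 (ENSMUSG00000019960.8, chr10:99263231-99267489), the cytoplasmic Erk phosphatase, rose 3.51-fold in distal Cdx2-sgRNA organoids, from 102 and 98.0 CPM to 368 and 333 CPM (log2 1.81 ± 0.19, adjusted p = 2.98e-05). In Scramble-sgRNA organoids its change was smaller. The proximal libraries went from 61.5 and 83.9 CPM to 143 and 127 CPM (log2 0.90 ± 0.19, adjusted p = 0.00539) and the distal ones from 102 and 130 CPM to 191 and 151 CPM (log2 0.56 ± 0.19, adjusted p = 0.0343). Both passed the p threshold and not the 2-fold limit, although the proximal value exceeded it without WENR-plus replicate 2 (log2 1.17) or WENR-minus replicate 2 (log2 1.05). In proximal Cdx2-sgRNA organoids the order was the opposite, with 86.3 and 80.0 CPM in WENR-plus and 52.4 and 65.3 CPM in WENR-minus (log2 -0.50 ± 0.19, adjusted p = 0.109). The difference of this response from that of proximal Scramble-sgRNA organoids was itself called, at log2 -1.39 ± 0.27 (adjusted p = 0.0239), 1 of 10 genes where 1.67% of all genes were called higher and 1.93% lower. That call was lost without any 1 of 4 libraries, at log2 -1.22 and -1.65 without proximal Scramble-sgRNA WENR-plus replicate 1 or 2, -1.31 without Scramble-sgRNA WENR-minus replicate 1 and -1.45 without Cdx2-sgRNA WENR-plus replicate 2. It was also lost in a fit to the proximal libraries alone (log2 -1.40, adjusted p = 0.0805). In the same test 1 of 6 proliferation markers was higher (median log2 1.87), and 2 of 8 epithelial markers, 1 of 4 differentiation markers and 2 of 19 other Erk-responsive genes were lower. Leaving out 1 of the 8 libraries gave 0 to 5 proliferation calls (5 without Scramble-sgRNA WENR-minus replicate 2), 0 to 2 epithelial and 0 to 3 Erk-responsive calls. The part of these genes in the Dusp6 result was not tested.

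Dusp4 (chr8:34807297-34819894), another Erk phosphatase of the nucleus, had log2 differences of 0.44 to 0.78 between media in the 4 backgrounds that did not pass the test (adjusted p = 0.0527 to 0.378). Proximal Cdx2-sgRNA libraries, at 77.5 and 39.6 CPM in WENR-plus against 94.9 and 63.6 CPM in WENR-minus, overlapped between media, and their log2 difference ran from 0.0332 without WENR-plus replicate 2 to 1.01 without WENR-plus replicate 1. In the other 3 backgrounds the WENR-minus libraries lay above those in WENR-plus, at 54.0 and 70.0 against 106 and 82.0 CPM in proximal Scramble-sgRNA, 95.02 and 75.01 against 121 and 138 CPM in distal Scramble-sgRNA, and 75.5 and 81.5 against 150 and 118 CPM in distal Cdx2-sgRNA organoids.

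The Sprouty genes did not move as a group. Spry2 (chr14:105891947-105896819) rose in distal Cdx2-sgRNA organoids from 22.1 and 24.0 CPM to 59.9 and 71.7 CPM (log2 1.51 ± 0.17, adjusted p = 3.43e-05). In distal Scramble-sgRNA organoids it went from 25.2 and 25.5 CPM to 40.6 and 40.7 CPM, which passed the p threshold below 2-fold (log2 0.68 ± 0.16, adjusted p = 0.00643). So did proximal Scramble-sgRNA organoids, from 15.1 and 17.2 CPM to 25.5 and 22.6 CPM (log2 0.58 ± 0.17, adjusted p = 0.0226), whereas proximal Cdx2-sgRNA organoids did not (log2 0.19 ± 0.17, adjusted p = 0.499). Spry4 (ENSMUSG00000024427.7) was at 2.06 and 2.31 CPM in proximal Scramble-sgRNA organoids in WENR-plus and at 5.45 and 5.00 CPM in WENR-minus (log2 1.26 ± 0.40, adjusted p = 0.0334). Leaving out any 1 of these 4 libraries ended the Spry4 call, with log2 values of 1.22 to 1.38. In distal Cdx2-sgRNA organoids Spry4 went from 6.65 and 11.5 CPM to 17.8 and 33.0 CPM (log2 1.48 ± 0.38, adjusted p = 0.00716). That call was lost without WENR-plus replicate 1 (log2 1.21) or WENR-minus replicate 2 (log2 1.02). Spry4 did not pass in distal Scramble-sgRNA (log2 0.66 ± 0.38, adjusted p = 0.188) or proximal Cdx2-sgRNA organoids (log2 -0.53 ± 0.44, adjusted p = 0.472).

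Spry1 (ENSMUSG00000037211.12, chr3:37639947-37644598) went the other way. It was at 15.4 and 20.6 CPM in distal Scramble-sgRNA organoids in WENR-plus and at 3.85 and 5.38 CPM in WENR-minus, 3.90-fold lower (log2 -1.96 ± 0.29, adjusted p = 0.00037). In distal Cdx2-sgRNA organoids it fell from 11.98 and 16.4 CPM to 4.57 and 4.68 CPM (log2 -1.62 ± 0.29, adjusted p = 0.000778), and in proximal Cdx2-sgRNA organoids from 16.1 and 20.7 CPM to 5.79 and 9.15 CPM (log2 -1.29 ± 0.28, adjusted p = 0.0129). The proximal call was lost without WENR-minus replicate 1 (log2 -0.98) or WENR-plus replicate 2 (log2 -1.10). Proximal Scramble-sgRNA organoids had 12.8 and 15.9 CPM in WENR-plus and 11.8 and 13.1 CPM in WENR-minus, which overlap (log2 -0.20 ± 0.27, adjusted p = 0.618). The difference between the regions in this response, log2 1.76 ± 0.39, was not called (adjusted p = 0.192). It was called with the replicate number, read as the mouse, as a block (adjusted p = 0.0364) and by DESeq2 (adjusted p = 0.0124). The difference between guides in the proximal response, log2 -1.09 ± 0.39, was not called either (adjusted p = 0.131), but was called with the block (log2 -1.12, adjusted p = 0.0289).

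Spred1 (chr2:117121374-117182279), an inhibitor of Raf activation, was at 99.2 and 109 CPM in distal Cdx2-sgRNA organoids in WENR-plus and at 44.4 and 50.3 CPM in WENR-minus (log2 -1.14 ± 0.14, adjusted p = 5.83e-05). With length-scaled counts its log2 value was -0.94, just under 2-fold. Distal Scramble-sgRNA organoids gave log2 -0.96 ± 0.14 and proximal Cdx2-sgRNA organoids -0.82 ± 0.14, both past the p threshold (adjusted p = 0.000296 and 0.00455) and under 2-fold. In proximal Scramble-sgRNA organoids Spred1 was level between media, at 71.8 and 83.0 CPM against 73.3 and 80.4 CPM (log2 -0.01 ± 0.13, adjusted p = 0.978).

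The ETS factor Etv4 (ENSMUSG00000017724.14, chr11:101769742-101785371) was lower in WENR-minus in all 4 backgrounds. It went from 17.5 and 18.4 CPM to 3.39 and 4.66 CPM in distal Scramble-sgRNA organoids (log2 -2.16 ± 0.41, adjusted p = 0.00174) and from 7.51 and 10.3 CPM to 1.35 and 0.753 CPM in distal Cdx2-sgRNA organoids (log2 -3.07 ± 0.46, adjusted p = 0.000234). In proximal Cdx2-sgRNA organoids it went from 5.80 and 5.39 CPM to 0.520 and 1.43 CPM (log2 -2.47 ± 0.45, adjusted p = 0.00631, and log2 -3.41 without WENR-minus replicate 2). In proximal Scramble-sgRNA organoids it went from 9.08 and 11.3 CPM to 3.04 and 5.26 CPM (log2 -1.29 ± 0.40, adjusted p = 0.0327). Medium separated the libraries within each background without overlap. The last call was lost with length-scaled counts (log2 -0.96), without WENR-plus replicate 1 (log2 -1.40) or 2 (log2 -1.10), and without WENR-minus replicate 1 (log2 -0.93).

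Etv5 (ENSMUSG00000013089.15, chr16:22381309-22439719) fell in 3 of the 4 backgrounds. Proximal Cdx2-sgRNA libraries went from 3.42 and 6.13 CPM to 1.11 and 0.740 CPM (log2 -2.39 ± 0.39, adjusted p = 0.00446) and distal Cdx2-sgRNA libraries from 8.25 and 11.8 CPM to 2.03 and 2.51 CPM (log2 -2.14 ± 0.36, adjusted p = 0.000535). Distal Scramble-sgRNA libraries went from 49.0 and 32.6 CPM to 17.9 and 15.6 CPM (log2 -1.29 ± 0.32, adjusted p = 0.00767), a call lost without WENR-plus replicate 1 (log2 -0.91) or WENR-minus replicate 2 (log2 -1.20). Proximal Scramble-sgRNA libraries, at 43.6 and 35.4 CPM against 27.9 and 18.5 CPM, did not pass (log2 -0.77 ± 0.31, adjusted p = 0.0895). With counts scaled by transcript length the 3 calls were lost, at log2 -1.89, -1.59 and -0.86 in the order above (adjusted p = 0.168, 0.115 and 0.357). In a fit to the 4 proximal Cdx2-sgRNA libraries alone, the calls of Etv5, Etv4 and Spry1 there were lost as well, with similar log2 values (adjusted p = 0.133, 0.138 and 0.145).

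Phlda1 (chr10:111506286-111508645), a growth factor-induced gene known from intestinal crypts, had log2 differences of -0.54 to -0.26 between media in the 4 backgrounds, under 2-fold in each. It passed the p threshold in distal Scramble-sgRNA organoids (log2 -0.47 ± 0.17, adjusted p = 0.0481). Proximal Cdx2-sgRNA organoids had 309 and 326 CPM in WENR-plus and 225 and 214 CPM in WENR-minus.

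**Figure D2:**
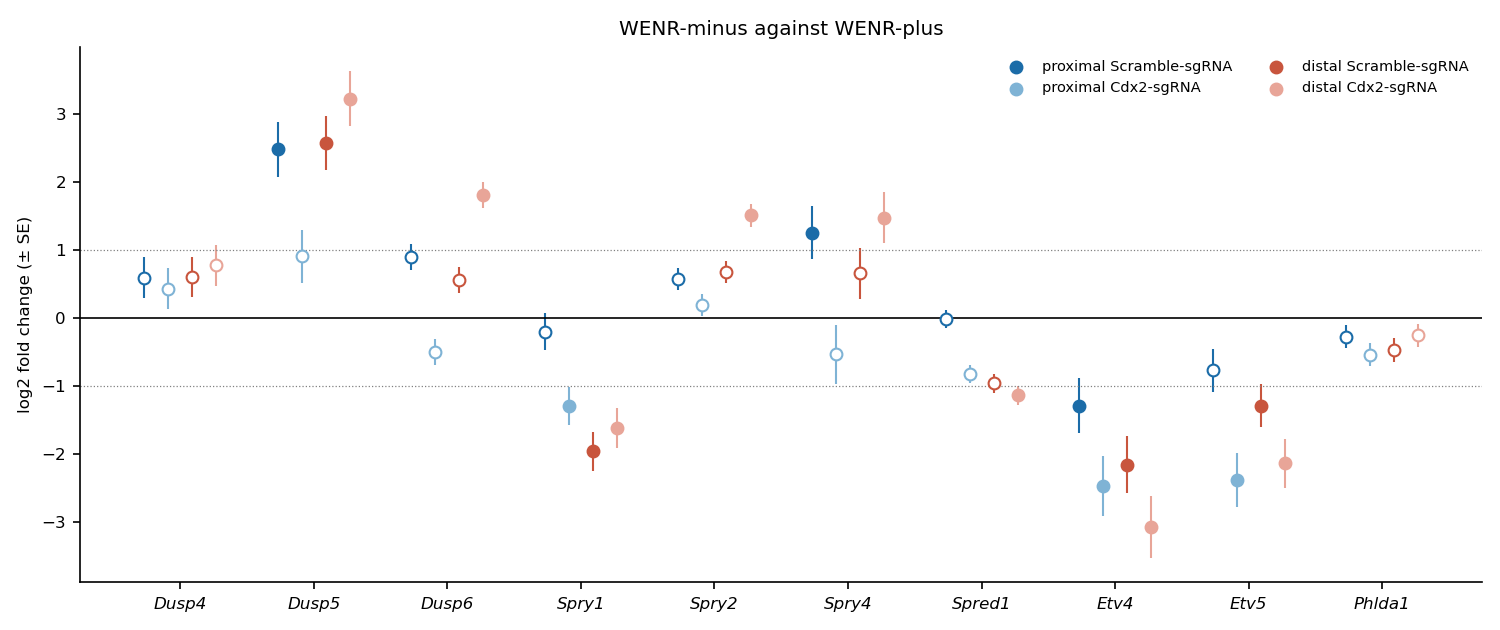
Log2 fold change of each gene in WENR-minus against WENR-plus (points) with its standard error (bars), in 4 backgrounds of 2 libraries per medium. Filled points were called and dotted lines mark 2-fold; Dusp5 lies highest in distal Cdx2-sgRNA organoids (3.23) and Etv4 lowest in the same organoids (-3.07), while Dusp6 is above 0 in 3 backgrounds and below 0 in proximal Cdx2-sgRNA organoids (-0.50).

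Other genes of the pathway are given for the same comparisons. Of 21 genes of the receptor-to-Erk cascade, 7 rose in proximal Scramble-sgRNA, 6 in distal Scramble-sgRNA, 8 in distal Cdx2-sgRNA and 1 in proximal Cdx2-sgRNA organoids. The scaffold gene Ksr1 rose most in distal organoids (log2 2.82 ± 0.27 in Scramble-sgRNA, adjusted p = 4.54e-05). Egfr, the EGF receptor, rose in proximal Scramble-sgRNA (log2 1.42 ± 0.28, adjusted p = 0.00361), proximal Cdx2-sgRNA (1.47 ± 0.28, adjusted p = 0.00803) and distal Cdx2-sgRNA organoids (1.98 ± 0.28, adjusted p = 0.000182). Of 19 other Erk-responsive genes tested, 7, 9, 10 and 5 rose and 2, 3, 3 and 1 fell in the same order of backgrounds. The immediate early gene Fos rose most of these in Scramble-sgRNA organoids, by log2 2.41 ± 0.29 in proximal (adjusted p = 0.000329) and 2.26 ± 0.28 in distal organoids (adjusted p = 0.000157), and Myc and Ccnd1, which drive cell division, fell. Of 16 other feedback regulators tested, 3, 4, 5 and 2 rose and 2, 4, 4 and 1 fell. Dusp10, a phosphatase of stress kinases, rose in all 4 backgrounds (log2 2.37 to 3.21) and Lrig1, which restrains ErbB receptors and marks stem cells, fell in all 4 (log2 -3.42 to -1.52). In proximal organoids these counts moved with single libraries. In proximal Cdx2-sgRNA organoids the called cascade, Erk-responsive and feedback genes numbered 0, 1 and 1 without WENR-plus replicate 2 and 4, 8 and 5 without WENR-plus replicate 1, against 1, 6 and 3 with all libraries. In proximal Scramble-sgRNA organoids they numbered 4, 5 and 3 without WENR-minus replicate 1, against 7, 9 and 5.

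Markers of cell state moved with the medium beside these genes. Of 6 proliferation markers 5 fell in proximal Scramble-sgRNA, 5 in distal Scramble-sgRNA and 5 in distal Cdx2-sgRNA organoids, with medians of log2 -2.09, -2.04 and -3.10. In proximal Cdx2-sgRNA organoids their median was log2 -0.21 and their summed level was 778 and 619 CPM in WENR-plus and 667 and 766 CPM in WENR-minus. In distal Cdx2-sgRNA organoids it was 1109 and 1523 CPM in WENR-plus and 208 and 301 CPM in WENR-minus. Of 3 stem cell markers 2, 2, 3 and 2 fell in proximal Scramble-sgRNA, distal Scramble-sgRNA, distal Cdx2-sgRNA and proximal Cdx2-sgRNA organoids, and of 4 differentiation markers 4, 2, 3 and 1 rose. In proximal Scramble-sgRNA organoids the number of differentiation markers called fell whichever 1 of the libraries was left out. In proximal Cdx2-sgRNA organoids the 1 call was lost without WENR-plus replicate 1 or WENR-minus replicate 2. Of 8 epithelial markers 5, 6, 6 and 4 rose. The endothelial gene Pecam1 rose in distal Scramble-sgRNA organoids, from 0.1001 and 0.269 CPM to 2.00 and 1.08 CPM (log2 3.02), a call lost without WENR-plus replicate 1 or WENR-minus replicate 1. The part of these shifts in the results on the 10 genes was not tested.

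The second question is what differs in Cdx2-sgRNA organoids. Etv5 was lower than in Scramble-sgRNA organoids in both regions and both media. In proximal organoids 4 of the 10 genes were called in WENR-minus, each lower, where 9.04% of all genes were called higher and 12.1% lower. In WENR-plus 1 was called, also lower, where the shares were 6.93% and 8.94%. In distal organoids in WENR-minus 1 gene rose and 2 fell, against 2.24% and 3% of all genes, and in WENR-plus 1 fell, where 0.137% of all genes rose and 0.124% fell. The median log2 difference of the 10 genes in proximal organoids in WENR-minus was -0.98, with 9 of 10 below 0, beside 0 for all genes. In the other 3 settings the median lay between -0.13 and 0.07. In proximal WENR-minus 3 of 4 differentiation markers (median log2 -7.52) and 4 of 8 epithelial markers (median log2 -1.19) were called lower, and 1 of 6 proliferation markers higher (median log2 0.98). The number of proliferation markers called was 0 without Scramble-sgRNA replicate 1 or Cdx2-sgRNA replicate 2 and 5 without Scramble-sgRNA replicate 2. Cd68, the immune gene tested, was higher (log2 2.99), a call lost without Scramble-sgRNA replicate 2. In proximal WENR-plus 3 differentiation markers were lower and 1, Krt20, higher (median log2 -3.18), and 2 of 8 epithelial markers and 1 of 6 proliferation markers were lower. Without Scramble-sgRNA replicate 2 the differentiation markers called were 2, and the proliferation call was lost without either Scramble-sgRNA replicate or Cdx2-sgRNA replicate 2. In distal WENR-minus 1 of 4 differentiation markers was lower, a call lost without Scramble-sgRNA replicate 1 or either Cdx2-sgRNA replicate. The part of these markers in the results on the 10 genes was not tested. Of the pathway lists in proximal WENR-minus, 3 of 19 other Erk-responsive genes were higher and 3 lower, as were 1 and 1 of 16 other feedback regulators. Of 21 cascade genes 6 passed the p threshold below 2-fold, each lower (median log2 -0.31), and leaving out 1 library gave 0 to 3 calls (3 without Scramble-sgRNA replicate 2). In distal WENR-minus 1 of 19 other Erk-responsive genes was called higher (median log2 0.73, 15 above 0 and 4 below). So was 1 of 21 cascade genes (median log2 0.11), a call lost without any 1 of the 4 libraries. Of 16 other feedback regulators 1 was lower, a call lost without some single libraries. All 6 proliferation markers lay below 0 (median log2 -1.11), with 0 called. The part of these genes in the distal results was not tested. These comparisons of guides share their groups with those between media.

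Etv5 in proximal organoids in WENR-minus was at 1.11 and 0.740 CPM in Cdx2-sgRNA and at 27.9 and 18.5 CPM in Scramble-sgRNA organoids, 25.3-fold lower (log2 -4.66 ± 0.40, adjusted p = 1.15e-05). In WENR-plus the same organoids had 3.42 and 6.13 CPM against 43.6 and 35.4 CPM, 8.24-fold lower (log2 -3.04 ± 0.34, adjusted p = 0.00015). In distal organoids it was 7.35-fold lower in WENR-minus, 2.03 and 2.51 CPM against 17.9 and 15.6 CPM (log2 -2.88 ± 0.37, adjusted p = 0.00266). In WENR-plus it was 4.07-fold lower, 8.25 and 11.8 CPM against 49.0 and 32.6 CPM (log2 -2.02 ± 0.33, adjusted p = 0.0301). No library of one guide overlapped the other in any setting. The distal WENR-plus call was lost without any 1 of its 4 libraries (log2 -2.27 to -1.71), with length-scaled counts (log2 -2.22, adjusted p = 0.47) and in a fit to those 4 libraries alone (log2 -2.01, adjusted p = 0.257).

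Etv4 fell in WENR-minus, from 3.04 and 5.26 CPM to 0.520 and 1.43 CPM in proximal (log2 -2.05 ± 0.44, adjusted p = 0.0052, and log2 -2.98 without Cdx2-sgRNA replicate 2) and from 3.39 and 4.66 CPM to 1.35 and 0.753 CPM in distal organoids (log2 -1.93 ± 0.46, adjusted p = 0.0255). The distal call was lost without Cdx2-sgRNA replicate 1 (log2 -2.41) or 2 (log2 -1.57), without Scramble-sgRNA replicate 2 (log2 -1.68) and with length-scaled counts (adjusted p = 0.0574), and both calls were lost in fits to the compared libraries alone (adjusted p = 0.0822 and 0.0626). In WENR-plus Etv4 was at 5.80 and 5.39 CPM against 9.08 and 11.3 CPM in proximal organoids and at 7.51 and 10.3 CPM against 17.5 and 18.4 CPM in distal ones. Neither difference passed (log2 -0.86 ± 0.40, adjusted p = 0.137, and -1.01 ± 0.39, adjusted p = 0.653).

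Dusp6 was lower in proximal and higher in distal Cdx2-sgRNA organoids in WENR-minus. Proximal libraries held 52.4 and 65.3 CPM against 143 and 127 CPM in Scramble-sgRNA (log2 -1.20 ± 0.19, adjusted p = 0.000817). Distal libraries held 368 and 333 CPM against 191 and 151 CPM (log2 1.04 ± 0.19, adjusted p = 0.00971), a call lost without Cdx2-sgRNA replicate 1 (log2 0.96) or Scramble-sgRNA replicate 2 (log2 0.88). In WENR-plus the guides lay closer, with log2 differences of 0.19 ± 0.19 in proximal (adjusted p = 0.491) and -0.22 ± 0.19 in distal organoids (adjusted p = 0.968).

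Spry4 followed the same order. In proximal organoids in WENR-minus it was at 1.04 and 1.00 CPM in Cdx2-sgRNA and at 5.45 and 5.00 CPM in Scramble-sgRNA, 5.09-fold lower (log2 -2.35 ± 0.43, adjusted p = 0.00184). In distal organoids it was at 17.8 and 33.0 CPM against 12.5 and 8.46 CPM, without overlap, a log2 difference of 1.27 ± 0.38 that missed the threshold (adjusted p = 0.0554) and passed with DESeq2 (adjusted p = 0.0153). Dusp5 had log2 differences of -1.07 ± 0.38 in proximal (adjusted p = 0.0526) and 1.29 ± 0.37 in distal organoids (adjusted p = 0.0517), which just missed the threshold. Both Dusp5 differences passed with the replicate number as a block (adjusted p = 0.0491 and 0.0452), with DESeq2 (adjusted p = 0.0341 and 0.00896) and in edgeR fits to the compared libraries alone (adjusted p = 0.0397 and 0.0358).

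Spred1 in proximal WENR-minus was at 43.9 and 38.5 CPM in Cdx2-sgRNA against 73.3 and 80.4 CPM in Scramble-sgRNA, past the p threshold and under 2-fold (log2 -0.90 ± 0.14, adjusted p = 0.000563). In the other 3 settings its log2 difference was -0.29 to -0.09 (adjusted p = 0.202 to 0.974). Dusp4 (log2 -0.24 to 0.05), Phlda1 (log2 -0.13 to 0.47) and Spry1 (log2 -0.74 to 0.36) did not pass in any of the 4 settings, except that Spry1 was called in proximal WENR-minus without Cdx2-sgRNA replicate 2 (log2 -1.11, against -0.74 with all libraries). Spry2 passed the p threshold in distal WENR-minus, at 59.9 and 71.7 CPM in Cdx2-sgRNA against 40.6 and 40.7 CPM in Scramble-sgRNA (log2 0.69 ± 0.16, adjusted p = 0.0247), and not in the other 3 settings (log2 -0.26 to 0.12).

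**Figure D3:**
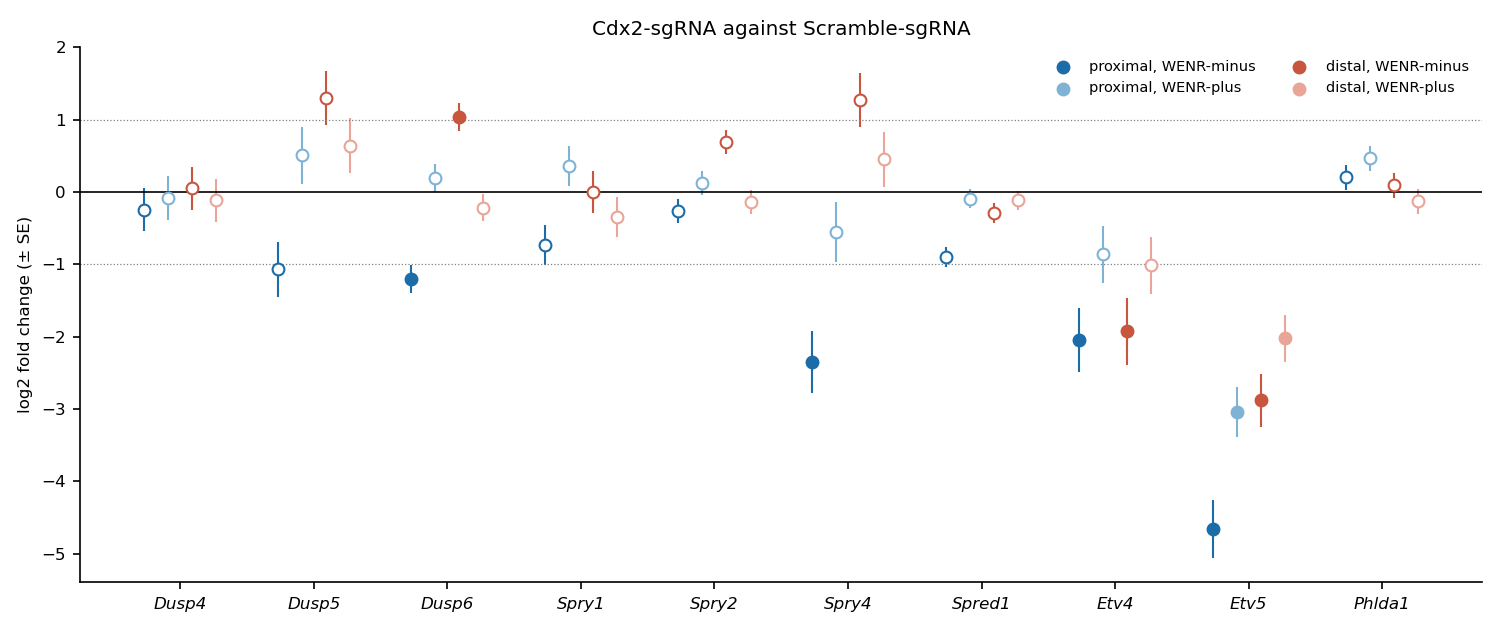
Log2 fold change of each gene in Cdx2-sgRNA against Scramble-sgRNA organoids (points) with its standard error (bars), in 2 regions and 2 media with 2 libraries per group. Filled points were called and dotted lines mark 2-fold; Etv5 is below -2 in all 4 settings, and Dusp5, Dusp6 and Spry4 lie below 0 in proximal and above 0 in distal organoids in WENR-minus.

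Whether the difference between guides depends on the region was tested directly. In WENR-minus 4 of the 10 genes were called, each with a lower value in proximal organoids, where 5.17% of all genes were called higher and 9.08% lower. Spry4 had the largest difference of differences (log2 -3.62 ± 0.57, adjusted p = 0.00182), followed by Dusp5 (-2.36 ± 0.53, adjusted p = 0.0123) and Dusp6 (-2.24 ± 0.27, adjusted p = 0.000345). Leaving out any 1 of the 8 libraries kept these 3 calls, over log2 ranges of -4.01 to -3.10, -2.61 to -2.15 and -2.42 to -2.06. Etv5 was the fourth (log2 -1.78 ± 0.53, adjusted p = 0.0391). Its call was lost without 7 of the 8 libraries, all but proximal Scramble-sgRNA replicate 2 (log2 -2.06 to -1.42 over the 8), and with length-scaled counts (log2 -1.38, adjusted p = 0.438). Spry2 (log2 -0.96 ± 0.23, adjusted p = 0.0173) and Spred1 (-0.61 ± 0.19, adjusted p = 0.0493) passed the p threshold only. Spry2 was called without distal Cdx2-sgRNA replicate 1 (log2 -1.09), proximal Scramble-sgRNA replicate 2 (log2 -1.05) or proximal Cdx2-sgRNA replicate 2 (log2 -1.15). In WENR-plus edgeR called 0 of the 10 (3.76% of all genes were called lower and 1.22% higher), DESeq2 also called 0, and 2 had an unadjusted p under 0.05.

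Whether the response to medium differs between guides in distal organoids gave 0 of 10 calls with edgeR, where 0% of all genes were called. There 2 genes had an unadjusted p under 0.05, and DESeq2 called 1, Dusp6 (log2 1.25, adjusted p = 0.00481). Whether the response of Scramble-sgRNA organoids differs between regions also gave 0 of 10 (0.0327% of all genes were called higher and 0.0392% lower), with 2 at an unadjusted p under 0.05 and 1 by DESeq2, Spry1.

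In the same test of region dependence in WENR-minus, 4 of 21 cascade genes were called lower and 3 of 6 proliferation markers higher (median log2 2.12). The cascade count was 0 without proximal Scramble-sgRNA replicate 1 and 2 without distal Scramble-sgRNA replicate 2. The proliferation count was 0 without distal Scramble-sgRNA replicate 2, 1 without proximal Scramble-sgRNA replicate 1 or distal Cdx2-sgRNA replicate 1, and 5 without proximal Scramble-sgRNA replicate 2. Of 19 other Erk-responsive genes 1 was called higher and 3 lower, and of 16 other feedback regulators 1 higher. The Erk-responsive genes called were 1 without distal Scramble-sgRNA replicate 2 and 2 without proximal Scramble-sgRNA replicate 1 or proximal Cdx2-sgRNA replicate 2. The feedback call was lost without proximal Scramble-sgRNA replicate 1, distal Scramble-sgRNA replicate 2 or distal Cdx2-sgRNA replicate 2. Of the cascade genes Ksr1 had log2 -1.53 ± 0.36 (adjusted p = 0.0157) and Erbb2 -1.24 ± 0.25 (adjusted p = 0.00751). The proliferation markers summed to 667 and 766 CPM in proximal and 208 and 301 CPM in distal Cdx2-sgRNA organoids, and to 310 and 533 CPM in proximal and 379 and 554 CPM in distal Scramble-sgRNA organoids. Of 4 differentiation markers 2 were called lower, as were 5 of 8 epithelial markers (median log2 -1.58). The part of these markers in the region dependence of the 4 genes was not tested.

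The third comparison sets proximal against distal organoids. In Scramble-sgRNA organoids the median log2 difference of the 10 genes was -0.18 in WENR-minus and -0.60 in WENR-plus, beside 0.075 and 0.005 for all genes. In WENR-minus 1 was called, Spry1, higher in proximal organoids at 11.8 and 13.1 CPM against 3.85 and 5.38 CPM (log2 1.43 ± 0.29, adjusted p = 0.0106), where 2.88% of all genes were called higher and 3.2% lower. That call was lost without distal replicate 1 (log2 1.22) or proximal replicate 2 (log2 1.35). Spry2 passed the p threshold only (log2 -0.76 ± 0.16, adjusted p = 0.0156). In WENR-plus edgeR called 0 of 10, where 0.68% of all genes were called higher and 1.07% lower. There 4 had an unadjusted p under 0.05, all 10 log2 differences were below 0, of which Dusp5 turned without distal replicate 2 (0.24, against -0.69 with it) and Etv5 without distal replicate 1 (0.26) or proximal replicate 2 (0.12, against -0.05 with all libraries), and DESeq2 called 1, Spry4, at 2.06 and 2.31 CPM in proximal against 7.01 and 6.29 CPM in distal organoids (log2 -1.61, adjusted p = 0.00863).

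In Cdx2-sgRNA organoids the regions lay further apart. In WENR-minus 5 of 10 genes were called, each lower in proximal organoids, where 18.1% of all genes were called higher and 16.5% lower. The largest difference was in Spry4, 1.04 and 1.00 CPM in proximal against 17.8 and 33.0 CPM in distal organoids, 24.7-fold (log2 -4.63 ± 0.45, adjusted p = 1.53e-05). Dusp5 was 8.83-fold lower (14.9 and 19.2 CPM against 170 and 132 CPM, log2 -3.14 ± 0.40, adjusted p = 0.000103) and Dusp6 5.95-fold lower (52.4 and 65.3 CPM against 368 and 333 CPM, log2 -2.57 ± 0.20, adjusted p = 3.3e-06). Spry2 was at 17.7 and 22.4 CPM against 59.9 and 71.7 CPM (log2 -1.71 ± 0.17, adjusted p = 1.63e-05). Etv5 had log2 -1.31 ± 0.42 (adjusted p = 0.0229), a call lost without proximal replicate 2 (log2 -1.05), without distal replicate 2 (log2 -1.18), with length-scaled counts (adjusted p = 0.304) and in a fit to these 4 libraries alone (adjusted p = 0.0778). Dusp4 (log2 -0.76 ± 0.30, adjusted p = 0.0544) was called without proximal replicate 1 (log2 -1.07). The median of the 10 was log2 -1.04, beside 0.13 for all genes. In the same comparison 5 of 6 proliferation markers were called higher (median log2 2.21), and 4 of 8 epithelial markers (median log2 -1.48), 2 of 4 differentiation markers (median log2 -4.81) and 7 of 21 cascade genes (median log2 -0.62) lower. Of 19 other Erk-responsive genes 3 were higher, led by Epha4 (log2 3.05) and Ccnd1 (log2 2.51), and 9 lower, and of 16 other feedback regulators 2 were higher, Lrig1 and Il17rd, and 4 lower. The 3 stem cell markers had a median of log2 1.53. Of these Ascl2 was called higher (log2 3.30), a call lost without either distal replicate. It was near the floor, at 0.297 and 0.635 CPM in proximal against 0 and 0.0836 CPM in distal organoids. Cd68 was higher (log2 2.19), a call lost without proximal or distal replicate 2. The endothelial gene Pecam1 was lower (log2 -4.18), a call lost without proximal replicate 1. Its levels were near the floor, 0 and 0.0529 CPM in proximal against 0.677 and 0.669 CPM in distal organoids. The part of these genes in the differences of the 10 was not tested.

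In WENR-plus 2 of 10 were called, each lower in proximal Cdx2-sgRNA organoids (7.4% of all genes were called higher and 9.57% lower). Spry4 was at 1.97 and 1.00 CPM against 6.65 and 11.5 CPM (log2 -2.61 ± 0.41, adjusted p = 0.00108). Etv5 was at 3.42 and 6.13 CPM against 8.25 and 11.8 CPM (log2 -1.07 ± 0.33, adjusted p = 0.0327). The Etv5 call was lost without proximal replicate 1 (log2 -0.72) or either distal replicate (log2 -1.26 and -0.78), with length-scaled counts (log2 -0.82) and in a fit to these 4 libraries alone (adjusted p = 0.137). Spred1 passed the p threshold only (log2 -0.52 ± 0.13, adjusted p = 0.0148). Of 4 differentiation markers 2 were called lower and 1, Krt20, higher (median log2 -2.92), and 2 of 8 epithelial markers were lower. Mki67, a proliferation marker, and Pecam1 were also lower (log2 -1.28 and -4.74), calls lost without any 1 of the 4 libraries. Pecam1 was near the floor, at 0 and 0 CPM in proximal against 0.172 and 0.212 CPM in distal organoids. The part of these markers in the Spry4 and Etv5 differences was not tested.

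Across the 16 libraries the 10 genes fell into sets that the names of the families do not follow. The sets were drawn up after the values were seen. Dusp4, Dusp5, Dusp6, Spry2 and Spry4 were all positively correlated with each other (Pearson r of log2 CPM 0.692 to 0.926 over 10 pairs). Spry1, Spred1, Etv4 and Etv5 were too (0.431 to 0.896 over 6 pairs). Between these sets 18 of 20 pairs were negative, down to -0.777, and Phlda1 ranged from -0.607 to 0.631 with the other 9 genes. The points share groups, media and mice, so these values describe the libraries and are not a test.

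**Figure D4:**
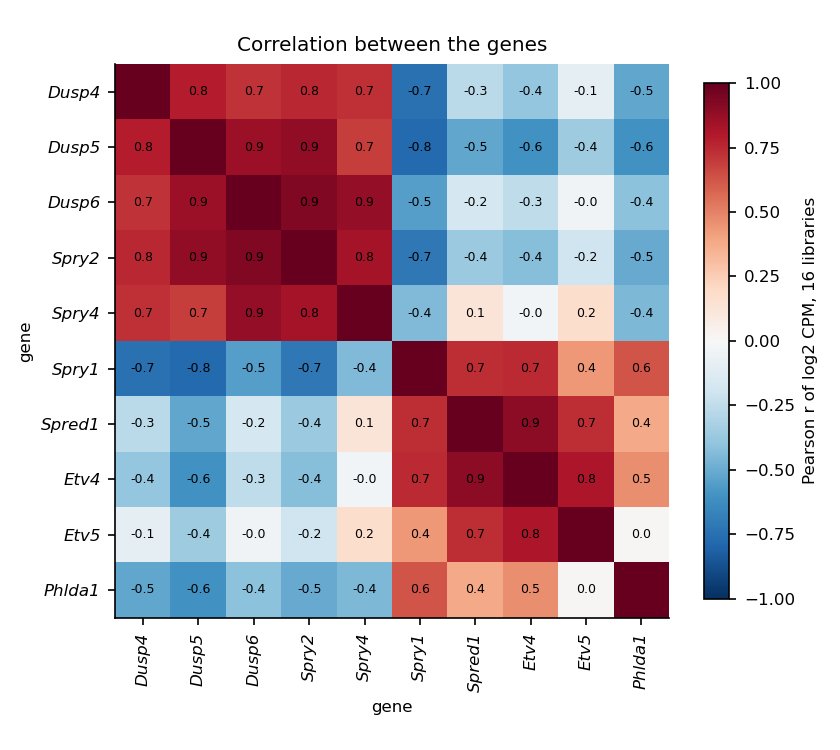
Pearson correlation of log2 CPM between each pair of the 10 genes over 16 libraries, on a colour scale from -1 (blue) to 1 (red) with the value to 1 decimal in each cell. The upper left set, Dusp4 to Spry4, has values from 0.692 to 0.926, and its 20 pairs with Spry1, Spred1, Etv4 and Etv5 run from -0.777 to 0.176.

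For each gene the tested genes with the most similar pattern over the 16 libraries were also listed, among genes with a mean of at least 5 CPM. Among those closest to Dusp5 was Nfat5 (r = 0.968). Spry2 and Dusp6 had Mlxip as their closest gene (0.975 and 0.937). The closest to Spry4 was Pnliprp2 (0.971), to Spry1 Crtap (0.955) and to Dusp4 Psme4 (0.940). For Etv4 it was Cd320 (0.964) and for Etv5 Tmem97 (0.950). Phlda1 had no partner as close, with Btg3 at 0.876.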

How the data were processed

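Libraries were prepared from total RNA with a stranded SMARTer kit. The authors quantified transcripts with Salmon 1.1.0 on GENCODE vM23 (mm10) and tested genes with DESeq2 (1.32, per the labels). The deposited values are unscaled estimated counts of each transcript, with TPM and effective length that the authors obtained from Salmon. Of 140748 transcripts, 139864 matched GENCODE vM21 and were summed to 54123 genes, and 884 (0.257 to 0.509% of counts) were left out.

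Rounded sums were filtered with filterByExpr, scaled by TMM and fitted over 16 libraries in 8 groups with edgeR 4.0.16 in R 4.3.3 (8 residual degrees of freedom). Calls needed adjusted p under 0.05 (Benjamini-Hochberg over 15289 genes) and log2 fold change beyond 1 in size. SE is the log2 fold change over the root of F, in size. All 10 members, Cdx2, the 2 highest and 2 lowest called genes of each pathway list and the 2 genes most similar in pattern could be named, some of which are not reported here, and the others named were chosen after their values were seen. Members and lists were chosen with earlier results of these data known. No library was a copy of another. In data simulated for the medium comparison of distal Scramble-sgRNA organoids (14621 genes), 85.5% of 200 genes changed by log2 2 were recovered, with 10 false calls. The changed genes had a mean of at least 5 CPM and all other genes were level. The recovered share therefore does not cover smaller changes or genes with fewer counts. Alternatives were RLE size factors, no filter, no fold threshold, a replicate block, length-scaled counts, DESeq2 1.42.0, the compared libraries alone and leaving out each library.

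The methods say that replicates are independent mice, and the same number was read as the same mouse. Deviations from group means correlated above 0.1 in 9 of 28 group pairs (-0.059 to 0.589, median 0.073), and in all 4 pairs of the same culture in both media (0.281 to 0.589). P-values measure the spread between libraries of 2 mice. The fit treats libraries of the same culture in both media as independent, and the replicate block does not model that pairing.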

Additional observations from a re-analysis of the deposited data

Results flagged for a closer look

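Tests of a difference between responses called 5 values among the 10 genes. The response of Dusp6 to WENR-minus in proximal organoids was lower in Cdx2-sgRNA than in Scramble-sgRNA organoids by log2 -1.39. In WENR-minus the difference between guides was lower in proximal than in distal organoids for Dusp5 (log2 -2.36), Dusp6 (log2 -2.24), Spry4 (log2 -3.62) and Etv5 (log2 -1.78). Groups of 2 libraries are too small for a test of outlying libraries.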

How the results depend on the processing

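The 10 genes in all comparisons gave 170 values. The 114 with adjusted p under 0.05 or a log2 size of at least 0.4 include all 40 calls, and RLE size factors changed none of these. The alternatives added no call among the other 56. Of these 56, 27 changed sign under at least 1 alternative, and 10 changed sign other than by leaving out 1 library. Among the 114 values DESeq2 added 8 calls, no filter 9 and no fold threshold 14. Length-scaled counts ended 10, and fits to the compared libraries alone ended 9 and added 2. The cause was not tested. Numbers of the 10 genes called are given below only where they moved most in proportion, and smaller moves are left out. Without a fold threshold they went from 3 to 5 (medium, proximal Scramble-sgRNA), 4 to 8 (medium, distal Scramble-sgRNA), 1 to 2 (region, Scramble-sgRNA in WENR-minus) and 1 to 2 (guide by medium, proximal). Without the filter and with DESeq2 they went from 3 to 5 (guide, distal WENR-minus), 0 to 1 (region, Scramble-sgRNA in WENR-plus), 1 to 4 and 1 to 3 respectively (guide by medium, proximal), 0 to 1 (guide by medium, distal) and 0 to 1 (medium by region, Scramble-sgRNA). With length-scaled counts they went from 1 to 0 (guide, distal WENR-plus) and 2 to 1 (region, Cdx2-sgRNA in WENR-plus). In fits to the compared libraries alone they went from 3 to 0 (medium, proximal Cdx2-sgRNA), 1 to 0 (guide, distal WENR-plus), 2 to 1 (region, Cdx2-sgRNA in WENR-plus) and 1 to 0 (guide by medium, proximal).

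Leaving out 1 library at a time gave 1 to 3 calls (guide, distal WENR-minus), 0 to 0 (guide, distal WENR-plus), 1 to 2 (region, Cdx2-sgRNA in WENR-plus), 0 to 1 (region, Scramble-sgRNA in WENR-minus), 0 to 1 (guide by medium, proximal) and 1 to 3 (medium, proximal Scramble-sgRNA). Of the 114 values it reversed 3, none of them called. The Spry4 response to medium in proximal Cdx2-sgRNA organoids ranged from -0.94 to 0.03 (0.0313 without WENR-plus replicate 1, log2 -0.53 with all libraries). Without distal Scramble-sgRNA WENR-plus replicate 2 the Dusp5 region difference in Scramble-sgRNA organoids in WENR-plus was 0.24 (range -1.26 to 0.24), and its guide by medium value in distal organoids was -0.30 (range -0.30 to 1.21). With 1 library left in a group, its spread is assumed to be that of the other groups.

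The replicate block, which pairs cultures of the same replicate number, ended no call and added 4. With it 2 genes in place of 1 were called for guide by medium in proximal organoids (Spry1, log2 -1.12, adjusted p = 0.0289). For medium by region in Scramble-sgRNA organoids 1 was called in place of 0 (Spry1, log2 1.77). Depth limits Etv4, Etv5 and Spry4 most, which had as few as 7, 14 and 14 reads in a library.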
